A study of Mus musculus with 3 samples.

Results

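Oxidative phosphorylation (OXPHOS) genes were followed through 3 single-cell RNA-seq libraries of mouse small intestinal organoids. The members were chosen by symbol: every gene whose name begins with Nduf, Cox4 to Cox8, Atp5 or Uqcr, or is Sdha, Sdhb, Sdhc or Sdhd, with symbols ending in -ps left out, together with the genes of the mitochondrial genome. The rule found 93 nuclear and 13 mitochondrial genes, 106 of the 32285 genes counted. The -ps exception left out Ndufb1-ps.

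The organoids came from C57BL/6 mice of 3 genotypes, WT, LApc (Lgr5-CreERT2 with Apc fl/fl) and LApcL, which carries the alleles of LApc and also Lef1 fl/fl. All mice, WT included, were given tamoxifen in 2 doses of 2 mg at an age of 7 to 8 weeks, and organoids were taken at passage 3 on day 6 of culture. The time from tamoxifen to analysis was 21 days in WT, 29 days in LApc and 21 days in LApcL, so genotype and time cannot be told apart for LApc. The Lgr5 promoter, active in intestinal stem cells, drives the Cre, which deletes Apc, a brake on Wnt signalling, and in LApcL also Lef1, a transcription factor of the Wnt pathway. Each genotype was 1 library, and the number of mice behind each organoid library is not given in the sources used here. No difference below therefore has a replicate check, no test between genotypes was made, and the intervals cover counting error only.

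Oxidative phosphorylation takes place in the inner mitochondrial membrane. Complex I (NADH dehydrogenase), complex II (succinate dehydrogenase) and complex III (cytochrome bc1) pass electrons to complex IV (cytochrome c oxidase), and complex V (ATP synthase) uses the proton gradient this builds up to make ATP. Most subunits are encoded in the nucleus and imported, a few core subunits are encoded in mitochondrial DNA, and complex II is wholly nuclear. In the intestine, absorptive enterocytes are known for many mitochondria, and Apc-mutant epithelium is known for a shift towards glycolysis.

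Barcodes were of 2 kinds that were kept apart, since the libraries share many of them. Deep barcodes occurred in 1 library only and held at least 10000 UMIs (unique molecular identifiers, each 1 captured RNA molecule), at every mitochondrial percent: 1635 in WT, 2456 in LApc and 2190 in LApcL. Their UMIs came to 55802711, 96196126 and 84717921, and the median barcode had 33937, 32257 and 30102.5 of them. Shared barcodes were the 3195 that occurred in all 3 libraries, with medians of 2176, 1483 and 1609 UMIs. The labels call all samples intestinal organoids. The deep barcodes fitted that label, with Epcam, Krt8 and Cdh1 summing to 2757 (WT), 3974 (LApc) and 4398 (LApcL) CPM, that is, UMIs per 1000000 UMIs that are not mitochondrial. The shared barcodes did not: the same epithelial genes summed to 8.52, 31.1 and 26.5 CPM there, while the endothelial genes Pecam1, Cdh5, Kdr, Emcn, Tie1 and Egfl7 summed to 4451, 4448 and 4452 CPM, against 5.32 to 22.6 in the deep barcodes. The profile of a shared barcode correlated at a median Pearson r of 0.55 to 0.59 between libraries, against 0.32 to 0.34 with that of the next barcode in sorted order. Shared barcodes are therefore described separately and called endothelial-marked. Of the targeted genes, Apc was at 24.0, 95.6 and 103 CPM in the deep barcodes of WT, LApc and LApcL, so Apc was not lower in the libraries with its deletion. Lef1 was nearly absent from WT, at 1.06 CPM (51 UMIs), so WT is no reference for its deletion. It stood at 75.3 CPM in LApc and 52.7 in LApcL, lower in the library with its deletion. Which exons are deleted is not given in the sources used here, and 3′ counts from outside the deleted part do not check a deletion.

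In the deep barcodes, the transcripts of both genomes took up a larger part of the WT library than of either Apc-deleted library. The mitochondrial share of UMIs was 13.8% for WT, 7.85% for LApc and 8.01% for LApcL, and the median barcode was at 11.9%, 6.07% and 6.97%. A high mitochondrial percent, a usual sign of damaged cells, moved with this order: 26.1% of the deep barcodes of WT were above 20%, against 12.0% in LApc and 11.8% in LApcL. Without them the share was 10.7%, 6.45% and 6.93%, an alternative added for this share after the data were seen. The study's methods excluded cells above 20% mitochondrial UMIs, while the main values here keep them. Nuclear OXPHOS genes held 4.48% of the UMIs that were not mitochondrial in WT, 3.07% in LApc and 3.00% in LApcL. On the log2 scale, LApc lay at -0.81 against WT for the mitochondrial share and -0.54 for the nuclear share, and LApcL lay at -0.78 and -0.58. LApcL against LApc differed by 0.03 and -0.03. The 2 comparisons with WT share the WT library. The counting interval of each share is narrow (4.47% to 4.48% for the nuclear share in WT) and says nothing of the spread between mice. There were 3.57 mitochondrial UMIs for each nuclear OXPHOS UMI in WT, 2.77 in LApc and 2.90 in LApcL.

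**Figure D1:**
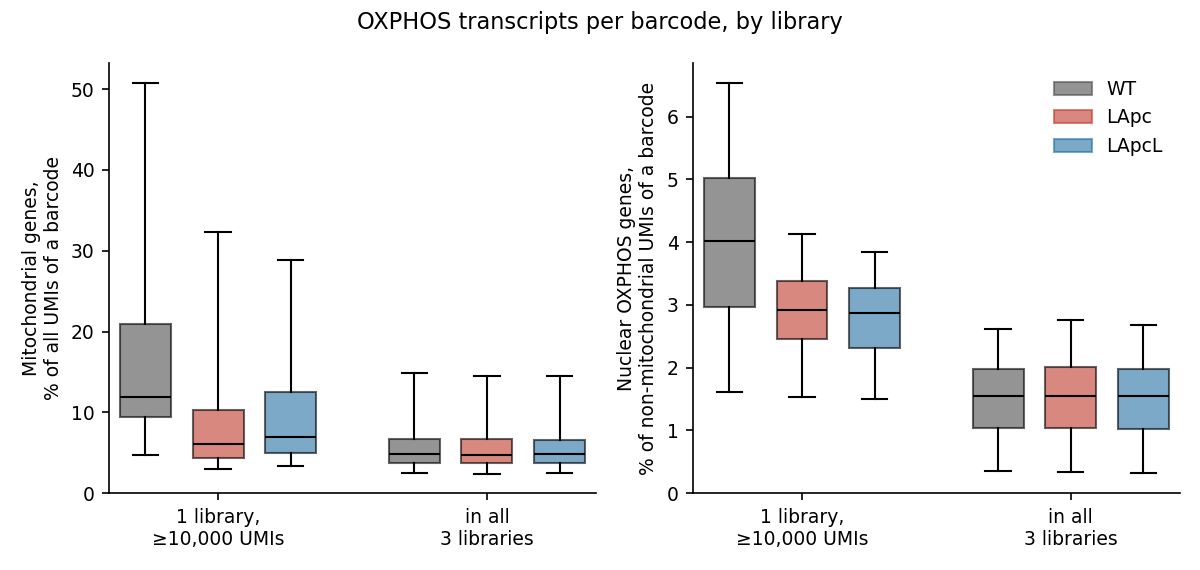
Share of UMIs from mitochondrial genes (left, % of all UMIs) and from nuclear OXPHOS genes (right, % of non-mitochondrial UMIs) per barcode, in deep barcodes of 1 library and in barcodes found in all 3 libraries. Boxes are quartiles with the median, whiskers the 5th and 95th percentiles; the WT boxes sit highest among deep barcodes (medians 11.9% and 4.02%), and the 3 boxes of the shared barcodes lie level.

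The lower nuclear share was found in all 5 complexes. Levels are in CPM of the UMIs that are not mitochondrial, log2 ratios are of that level plus 1, and a gene counts as higher or lower when it differs by at least 1.5-fold. Of the 93 nuclear members, 84 had a mean level of at least 20 CPM. In LApc against WT, 37 of these were lower and 3 higher, beside 14.3% of all 6343 genes at that level lower and 38.3% higher. The median log2 ratio of the members was -0.53, while that of all genes was 0.39, so the typical gene moved the other way on this scale. Only 5 of the 84 members lay above the all-gene median. The cytosolic ribosomal protein genes, another abundant group, had a median of -0.19. In LApcL against WT, 36 members were lower and 3 higher, beside 15.0% and 41.4% of all genes, with a median of -0.53. In LApc against WT, 24 members were lower on the scale of all UMIs (all genes 12.8% lower and 43.9% higher). With median-of-ratios scaling 58 were lower (21.7% and 21.6%), and with enterocyte-like barcodes left out 23 (11.2% and 25.5%). The median of the members was below 0 in each, while that of all genes was 0.48, 0.07 and 0.22.

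Complex I, which takes electrons from NADH, had the smallest median difference of the 5 complexes. The median over its 36 nuclear subunits was -0.33 in LApc against WT, and 11 were lower and 1 higher, beside the 14.3% and 38.3% of all genes given above. The 7 core subunits, which carry the redox centres, had a median of -0.64, and the 29 supernumerary subunits around them -0.30. Ndufb5, a supernumerary subunit of the membrane arm, stood at 606 CPM for WT, 292 for LApc and 286 for LApcL (log2 -1.05, 95% counting interval -1.08 to -1.03, in LApc against WT). Ndufa6 stood at 784, 409 and 336 CPM. Both were lower in LApc and in LApcL than in WT. Of the 36 subunits, 6 lay above 0 in LApc and 5 in LApcL against WT. Among them Ndufa7 alone was past 1.5-fold, and in LApc only, at 316, 495 and 424 CPM (log2 0.65 in LApc and 0.42 in LApcL, each against WT). With median-of-ratios scaling it was at 0.34 in LApc, under 1.5-fold.

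The factors that help assemble complex I were split. Of 8, 6 had the minimum level, and 3 of these lay above 0 and 3 below it in LApc against WT and in LApcL against WT, with a median log2 ratio of 0.12 and 0.29. In LApc 1 was higher and 0 lower, beside 38.3% and 14.3% of all genes. Ndufaf3 was listed at 22.0 CPM for WT, 43.2 for LApc and 39.0 for LApcL. Ndufaf2 stood at 34.9, 47.8 and 60.2, and Ndufaf7 at 17.0, 25.1 and 26.8. In LApcL these 3 of the 6 were over 1.5-fold higher than in WT (log2 0.80, 0.77 and 0.63), beside 41.4% of all genes, and Ndufaf7 reached the minimum mean level only through LApc and LApcL. In LApc only Ndufaf3 was past it (0.94, against 0.44 and 0.54). Ndufaf4, another assembly factor, was at a log2 ratio of -0.41 in LApc and -0.04 in LApcL.

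All 4 genes of complex II, which oxidises succinate and so joins the respiratory chain to the tricarboxylic acid cycle, were lower in both Apc-deleted libraries. Sdhd, a membrane anchor, stood at 356 CPM for WT, 174 for LApc and 160 for LApcL (log2 -1.03 and -1.15 against WT). Sdha, the flavoprotein that binds succinate, stood at 196, 115 and 120. Sdhb, the iron-sulphur subunit, stood at 257, 162 and 161, and Sdhc, the other anchor, at 163, 108 and 107. The 4 genes kept close to each other in LApcL against LApc, between -0.12 and 0.06.

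Complex III held 2 of the 5 lowest members. Uqcrq, a small subunit, fell from 1203 CPM in WT to 486 in LApc and 504 in LApcL (log2 -1.31, interval -1.33 to -1.29, and -1.25). Uqcrfs1, the Rieske iron-sulphur protein that passes electrons on to cytochrome c1, fell from 425 to 187 and 185 (log2 -1.18 and -1.20). All 8 members lay below 0 in LApc against WT, 6 of them past 1.5-fold (all genes 14.3% lower), with a median of -0.67. Uqcrb, the highest of them, stood at -0.45.

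Complex IV and complex V gave the same picture for their common subunits. The 13 complex IV genes at the minimum level ran from -0.26 (Cox6b1) to -3.55 (Cox7a1, kept through its WT level), with a median of -0.67 and 8 lower (all genes 14.3%). Cox4i1, the regulatory subunit that is the most abundant nuclear member in WT by UMI count, stood at 2155 CPM for WT, 1197 for LApc and 1117 for LApcL. Cox8a stood at 2030, 1277 and 1117. Cox7a2l, which takes part in joining complexes III and IV into supercomplexes, stood at 691, 401 and 342. In complex V, 8 of 17 genes were lower and 1 higher (all genes 14.3% and 38.3%), with a median of -0.57. Its catalytic subunit Atp5b stood at 1306, 834 and 858 CPM, and Atp5o, the subunit that links the catalytic head to the stalk, at 798, 411 and 443.

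**Figure D2:**
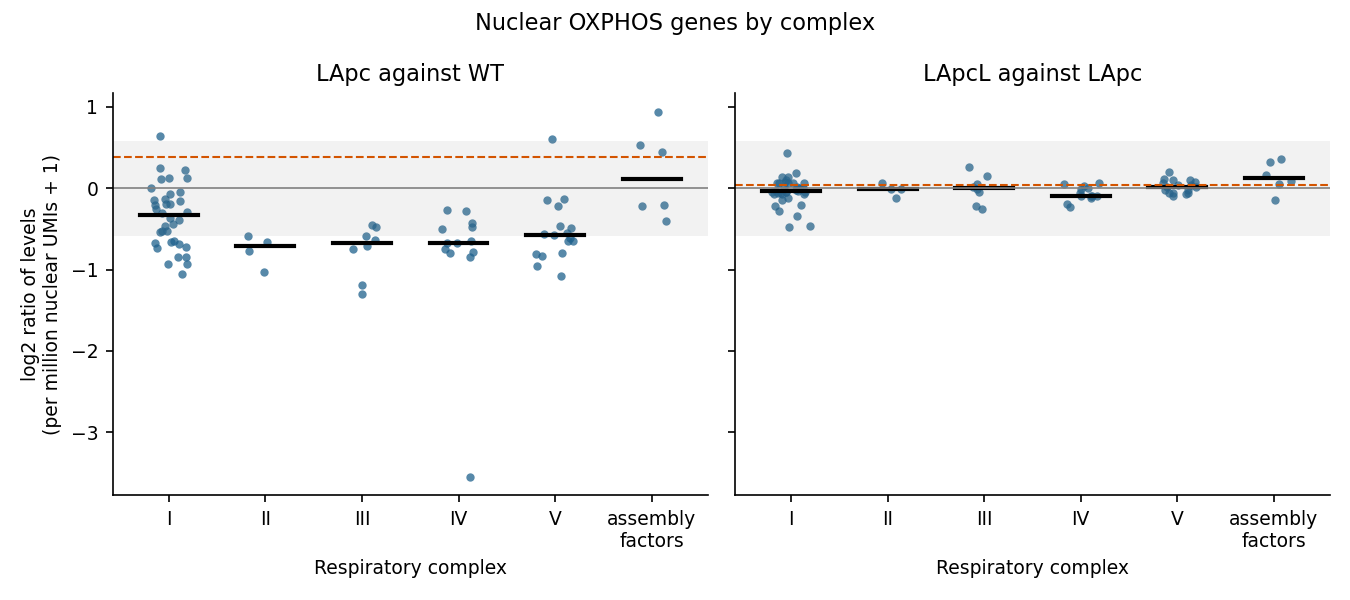
Log2 ratio of each nuclear member at the minimum level, by respiratory complex and for assembly factors, in LApc against WT (left) and LApcL against LApc (right). Points are genes, black bars group medians, the grey band 1.5-fold either way and the dashed line the median of all genes; complexes I to V have medians from -0.33 to -0.71 on the left and from -0.09 to 0.01 on the right.

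Members that stand in for one another did not move alike. The 3 nuclear genes Atp5g1, Atp5g2 and Atp5g3 encode the c subunit of the rotor of ATP synthase, with the same mature protein and different import signals. Atp5g1 stood at 967 CPM for WT, 541 for LApc and 568 for LApcL. Atp5g3 stood at 687, 324 and 372. Atp5g2 went the other way, at 463, 707 and 678 (log2 0.61, interval 0.59 to 0.63, and 0.55 against WT). Of the summed UMIs of the 3 genes, Atp5g2 held 21.9% in WT, 45.0% in LApc and 41.9% in LApcL. Shares of this kind are read across libraries and not between genes, since 3′ counting captures each gene differently. Within WT the share of Atp5g2 was 18.4% in enterocyte-like barcodes and 28.0% in cluster 0, while it was 39.6% to 50% in the clusters 3, 4 and 5 of LApc and LApcL described below. The log2 ratio of Atp5g2 in LApc against WT was 0.29 with enterocyte-like barcodes left out and 0.30 with median-of-ratios scaling, both under 1.5-fold.

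The promoters of the c-subunit genes and of the Cox7a isoforms are shown because they are members with like products whose levels parted. They are RefSeq windows on GRCm38.p6, from 250 bases before to 50 after the annotated start, read 5′ to 3′ on the gene's strand. Capitals mark the palindromic core bound by nuclear respiratory factor 1 (in the Atp5g2 window) and CACGTG, the palindromic E-box bound by Myc and its relatives (in Atp5g1 and Atp5g3). Another motif, CCGGAAG, the site of ETS factors, searched on both strands like the others, occurred in none of the 5.
Atp5g1, chr11:96075582-96075881, minus strand: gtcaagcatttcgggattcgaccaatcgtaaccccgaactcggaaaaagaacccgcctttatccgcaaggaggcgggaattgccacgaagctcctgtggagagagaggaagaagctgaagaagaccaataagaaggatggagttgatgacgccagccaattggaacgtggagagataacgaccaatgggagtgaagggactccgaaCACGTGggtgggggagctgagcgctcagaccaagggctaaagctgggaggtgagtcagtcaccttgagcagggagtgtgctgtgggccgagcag
Atp5g2, chr15:102670998-102671297, minus strand: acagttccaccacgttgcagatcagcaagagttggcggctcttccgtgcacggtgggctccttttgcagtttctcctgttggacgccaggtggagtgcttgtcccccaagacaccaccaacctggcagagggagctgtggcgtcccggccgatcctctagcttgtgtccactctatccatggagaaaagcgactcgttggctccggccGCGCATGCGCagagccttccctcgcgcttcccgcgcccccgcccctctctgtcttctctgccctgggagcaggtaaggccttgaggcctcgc
Atp5g3, chr2:73911277-73911576, minus strand: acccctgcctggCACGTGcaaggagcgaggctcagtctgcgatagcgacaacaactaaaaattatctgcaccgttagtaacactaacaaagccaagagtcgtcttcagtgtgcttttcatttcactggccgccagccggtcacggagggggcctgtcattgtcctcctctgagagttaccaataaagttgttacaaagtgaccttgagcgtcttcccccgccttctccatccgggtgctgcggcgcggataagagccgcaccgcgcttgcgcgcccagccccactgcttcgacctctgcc
Cox7a1, chr7:30183921-30184220, plus strand: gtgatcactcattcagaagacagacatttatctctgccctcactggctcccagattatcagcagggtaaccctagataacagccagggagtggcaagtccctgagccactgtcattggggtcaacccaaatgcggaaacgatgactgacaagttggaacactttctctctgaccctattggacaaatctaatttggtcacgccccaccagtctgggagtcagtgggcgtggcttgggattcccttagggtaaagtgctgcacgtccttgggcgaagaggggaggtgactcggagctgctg
Cox7a2, chr9:79759804-79760103, minus strand: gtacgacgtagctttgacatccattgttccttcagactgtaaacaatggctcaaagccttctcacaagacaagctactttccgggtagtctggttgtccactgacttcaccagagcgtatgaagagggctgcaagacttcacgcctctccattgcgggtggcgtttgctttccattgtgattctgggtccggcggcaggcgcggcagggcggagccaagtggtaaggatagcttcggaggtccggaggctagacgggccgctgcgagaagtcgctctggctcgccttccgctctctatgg

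The core of nuclear respiratory factor 1 begins at base 209 of the Atp5g2 window, which starts 42 bases before the annotated start, and no copy of these letters was found in the windows of Atp5g1 and Atp5g3. Each of those held 1 E-box, at bases 207 and 13. The Cox7a1 window held neither motif and 7 CG pairs, against 20 in Cox7a2. RefSeq windows were found for 76 of the 93 nuclear members (81 windows). The nuclear respiratory factor 1 core was in 8.64% of the members' windows and 0.971% of all 32851 windows, the ETS motif in 23.5% against 8.86%, and the E-box in 8.64% against 7.15%. The members' windows were richer in CG pairs, with a median of 20 against 7. Among members lower in LApc than in WT, the core was in 6.45% of windows, and among those within 1.5-fold in 7.14%. The E-box was in 4 of 31 windows of the former (12.9%) and in 1 of 42 of the latter (2.38%), and the ETS motif in 22.6% and 28.6%. Members higher in LApc are in neither group, and the windows of 1 of them, Ndufa7, held an E-box. A match of letters is a description and no measured site.

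Cox7a1 had the lowest log2 ratio of the kept members in LApc against WT, and it reached the minimum mean level through WT alone. It is an isoform of complex IV subunit 7a known from heart and muscle, and Cox7a2 is its widely expressed partner. Cox7a1 was listed at 68.5 CPM for WT (3296 UMIs), 4.93 for LApc (437 UMIs) and 4.56 for LApcL (355 UMIs), a level 0.0720 times that of WT in LApc. Cox7a2 stood at 771, 546 and 543 CPM. The Cox7a1 level depended on the cell state: it was 97.2 CPM in WT enterocyte-like barcodes, 20.9 in WT cluster 0 and 11.5 in WT cluster 2. In the clusters of LApc and LApcL it was 2.85 to 7.29 CPM, below each of the WT clusters. With enterocyte-like barcodes left out, its log2 ratio in LApc against WT was -1.81.

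The other complex IV isoforms known from particular tissues or conditions were under the minimum mean level. Cox6b2, a form known from testis, went from 3.89 CPM in WT (187 UMIs) to 25.3 in LApc (2245) and 27.8 in LApcL (2163), a 6.52-fold difference in LApc against WT, while its partner Cox6b1 stood at 894, 745 and 762. Ndufa4l2, a paralog of the complex IV subunit Ndufa4 that is known to be induced in hypoxia, was at 7.42, 3.00 and 0.808 CPM (357, 266 and 63 UMIs), and in LApc 217 of its 266 UMIs were in the Wnt-high-like cluster. Ndufa4 stood at 885, 728 and 684. Cox6a2 had 34, 4 and 0 UMIs, with Cox6a1 at 631, 403 and 372 CPM. Cox4i2, a form known from lung and from hypoxia, had 0, 14 and 1 UMIs. Cox7b2 had 0, 1 and 0, with Cox7b at 895, 515 and 484 CPM, and Cox8b and Cox8c had none. A count of 0 allows up to 3 UMIs, or 0.0624 CPM in WT.

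LApcL and LApc, which differ in Lef1 and in the days after tamoxifen (21 and 29), differed little in the nuclear members. None of the 84 was 1.5-fold higher or lower, beside 4.46% of all genes higher and 4.89% lower. The median log2 ratio was -0.01, with a range from -0.48 to 0.44, and 37 of 84 lay above 0. The lowest were Ndufa1 (268 CPM in LApc and 192 in LApcL, log2 -0.48), Ndufb4 (-0.47), Ndufb11 (-0.35), Ndufa6 (-0.28) and Uqcrh (-0.26), 4 supernumerary subunits of complex I and the hinge protein of complex III. The highest were Ndufb6 (121 and 164 CPM, log2 0.44), the assembly factors Ndufaf4 (0.36) and Ndufaf2 (0.33), Uqcrc1 (0.26), a core protein of complex III, and Atp5g3 (0.20). The Wnt-high-like cluster, which was almost wholly LApc, was high in both of the lowest: Ndufa1 stood at 350 CPM there and Ndufb4 at 382, against 214 and 221 in cluster 4 of LApc, and the part of that cluster in the difference was not tested. Within cluster 4, LApcL against LApc gave a median of -0.08 over the members, and within the proliferating-like cluster -0.11, with 0 members past 1.5-fold in both (all genes 4.38% higher and 2.79% lower, and 2.08% and 1.3%). Whether cluster 4 holds the same state in both libraries is uncertain, as its description below shows.

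The 13 mitochondrial genes, which are cut from long shared transcripts, all lay lower in LApc and in LApcL than in WT. Their levels are CPM of all UMIs, mitochondrial ones included. In LApc against WT, 10 of 13 were past 1.5-fold lower, beside 12.8% of all genes lower and 43.9% higher on that scale, with a median log2 ratio of -0.79 and a range from -1.28 to -0.42. In LApcL against WT, 9 of 13 were, beside 13.6% lower and 45.6% higher, with a median of -0.77. In LApcL against LApc 0 of 13 were past 1.5-fold either way, beside 4.86% lower and 4.18% higher. The lowest ratios in LApc against WT were those of 2 complex I genes, mt-Nd2 and mt-Nd4. mt-Nd2 stood at 9459 CPM for WT, 3899 for LApc and 3886 for LApcL (log2 -1.28 in LApc and in LApcL against WT). mt-Nd4 stood at 8776, 4129 and 4370. mt-Nd1 stood at 8582, 4505 and 5017, mt-Nd4l at 1163, 688 and 737, and mt-Nd5 at 2116, 1189 and 1485. mt-Nd6, the gene read from the other strand, was the scarcest, at 163, 93.9 and 111 CPM.

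The mitochondrial subunits of the later complexes took most of the mitochondrial UMIs and differed in their ratios. mt-Cytb, the cytochrome b of complex III, stood at 14339, 7639 and 7704 CPM. Of the complex IV core, mt-Co3 stood at 24447, 12595 and 13074, and mt-Co2 at 21155, 12312 and 12083. mt-Co1, the catalytic subunit, stayed within 1.5-fold at 20917, 14469 and 15761 (log2 -0.53 and -0.41), and its share of mitochondrial UMIs was 15.2% in WT, 18.4% in LApc and 19.7% in LApcL. mt-Atp6, the stator subunit of ATP synthase that faces the ring of c subunits, stood at 24076, 15111 and 14396 CPM, and mt-Atp8 at 568, 426 and 488.

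Between LApcL and LApc, mt-Nd3 differed most of the 13 genes. mt-Nd3, a small complex I subunit, stood at 2156 CPM for WT, 1472 for LApc and 999 for LApcL. That is a log2 ratio of -0.56 in LApcL against LApc, where the other 12 genes lay between -0.07 and 0.32. Its share of mitochondrial UMIs was 1.56% in WT, 1.87% in LApc and 1.25% in LApcL. Within the proliferating-like cluster mt-Nd3 lay at -0.69 in LApcL against LApc, and within cluster 4 at -1.05. The median over the 13 genes in all deep barcodes was 0.08. Cluster 4 may not hold the same state in LApc and LApcL, which the finer clusters given below set mostly apart. mt-Nd3 was not past 1.5-fold over all deep barcodes and was past it with doublets removed (-0.60).

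**Figure D3:**
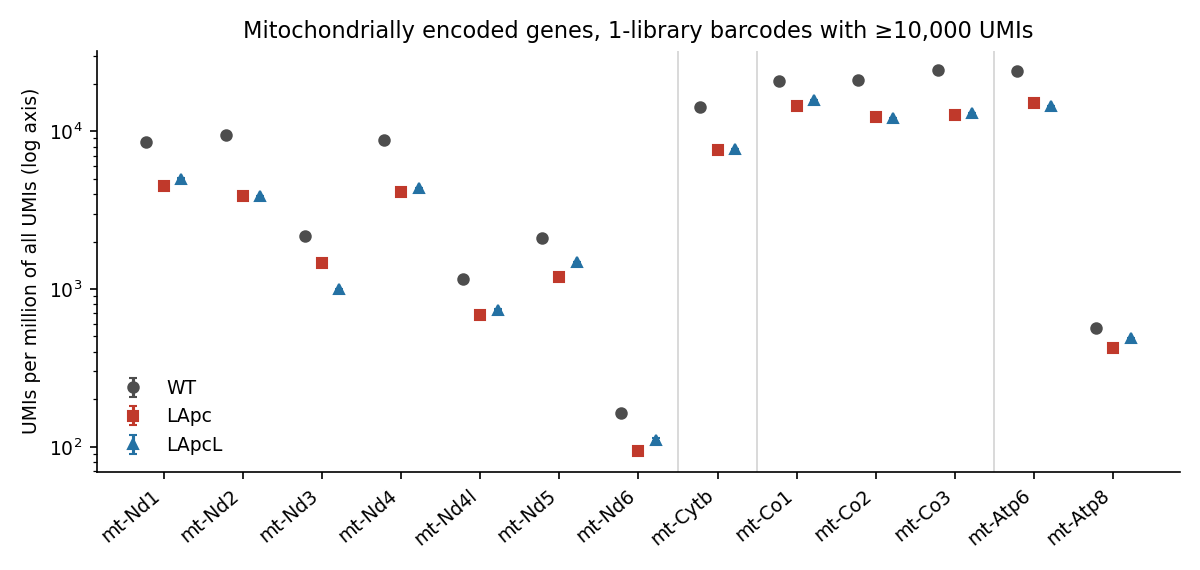
Level of the 13 mitochondrial genes in deep barcodes, in CPM of all UMIs on a log axis, by library. Points are library totals with 95% Poisson intervals, most smaller than the symbols, and vertical lines part complexes I, III, IV and V; WT is highest for every gene, and mt-Nd3 is the gene with LApcL well under LApc (999 against 1472).

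Neighbouring mitochondrial genes overlap, which limits how far some of these values can be told apart. In the GRCm38 annotation mt-Atp8 (chrM:7766-7969) and mt-Atp6 (chrM:7927-8607) share 43 bases, and mt-Nd4l (chrM:9877-10173) and mt-Nd4 (chrM:10167-11544) share 7, all on the plus strand. mt-Atp6 and mt-Co3 (chrM:8607-9390) share 1. The shared coding bases are shown in capitals with 20 bases on either side, in lower case, since a read in them fits both genes.
mt-Atp8 and mt-Atp6, chrM:7907-7989: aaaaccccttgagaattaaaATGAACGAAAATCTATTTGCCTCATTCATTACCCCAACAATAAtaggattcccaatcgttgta
mt-Nd4l and mt-Nd4, chrM:10147-10193: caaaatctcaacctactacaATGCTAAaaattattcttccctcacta
The genes of each pair stay on 1 messenger RNA. The split between mt-Atp8 and mt-Atp6, and between mt-Nd4l and mt-Nd4, is therefore uncertain. Of the nuclear members, 5 (Atp5g2, Atp5o, Ndufb2, Ndufb8 and Ndufb9) overlap an exon of another annotated gene on the same strand. For Atp5g2 that gene is a microRNA, Mir688. Their counts may be uncertain in the same way, but whether the overlapping genes are among those counted was not checked.

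Cell states differed in both genomes. Clusters were rebuilt with the members, the mitochondrial genes and the accessory mitochondrial genes left out of the features. Clusters 0 and 1 were almost wholly WT, cluster 5 almost wholly LApc, and clusters 3 and 4 held LApc and LApcL, so that outside cluster 2 no state compares WT with the others. Cluster 1 was enterocyte-like (Fabp1, Apoa1, Sis), cluster 3 proliferating-like (Pclaf, Top2a, Mki67) and cluster 5 Wnt-high-like (Nkd1, Notum, Wif1, Dkk3). Clusters 0 (led by Olfm4 and Cps1) and 4 (led by Pdzk1ip1 and Wfdc18) had no name, and cluster 2 mixed Paneth, enteroendocrine and goblet genes (Defa24, Cck, Lyz1, Spink4). With finer clusters, at resolution 0.5, that led by Car1 and Pdzk1ip1 held 579 LApc and 132 LApcL barcodes. The cluster led by Col14a1 and Sfrp5 held 24 and 922. Both share leading genes with cluster 4, so LApc and LApcL may be in different states there.

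In WT, the nuclear OXPHOS share was 4.75% in the enterocyte-like cluster (1025 barcodes), 4.18% in cluster 0 (536) and 2.67% in cluster 2 (71). The mitochondrial share ran in the same order, at 14.7%, 12.8% and 7.53%, and so did the barcodes above 20% mitochondrial, at 28.1%, 25.2% and 2.82% of each cluster. Cluster 2 was the only one with at least 20 barcodes in all 3 libraries. Its nuclear share was 2.67% in WT, 2.22% in LApc (41 barcodes) and 2.1% in LApcL (91), and its mitochondrial share 7.53%, 5.97% and 6.31%, so the order of the libraries was the one seen over all deep barcodes, with smaller gaps to WT. At the finer resolution of 0.5, the Paneth-like cluster had a nuclear share of 2.75%, 2.23% and 2.08% (33, 42 and 90 barcodes). Its leading genes also held goblet markers (Muc2, Tff3, Spink4). With 42 LApc barcodes against 41 in cluster 2, this cluster was not wholly a part of cluster 2. Enteroendocrine markers were higher in WT (1458 against 40.0 and 25.6 CPM over all deep barcodes) and Paneth markers lower (259 against 1830 and 4477), and the part of that mixture in the gaps was not tested.

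In LApc, the Wnt-high-like cluster was low in both, with 5.61% mitochondrial and 2.82% nuclear OXPHOS UMIs (1121 barcodes), against 9.88% and 3.25% in cluster 4 (661) and 9.24% and 3.32% in the proliferating-like cluster (633). Barcodes above 20% mitochondrial were 1.87%, 14.7% and 27.8% of these clusters, and without them the log2 mitochondrial share of the Wnt-high-like cluster against cluster 4 was -0.58, under 1.5-fold. Of 83 members kept in that comparison with cluster 4, 7 were lower and 2 higher in the Wnt-high-like cluster (all genes 11.2% and 14.1%), with a median of -0.25, and the 2 were the complex I subunits Ndufb4 (log2 0.79) and Ndufa1 (0.71). The proliferating-like cluster of LApc had 1 member higher and 0 lower than cluster 4 (all genes 7.55% and 5.23%), the assembly factor Ndufaf2 (0.75). In LApcL, cluster 4 (1044 barcodes) had 7.55% and 3.00%, and the proliferating-like cluster (1051) 8.50% and 3.06%, with 0 members past 1.5-fold between them (all genes 5.54% higher and 4.75% lower). The summed nuclear share of both large WT clusters (4.18% and 4.75%) was thus above that of clusters 3, 4 and 5, while single barcodes overlapped: the 5th percentile was 1.56% in the enterocyte-like cluster of WT, and the 95th percentile 4.33% in cluster 4 of LApc. Against WT cluster 0, the proliferating-like cluster of LApc had 14 members lower and 1 higher of 84 (all genes 11.2% and 24.9%), with a median of -0.30, and that of LApcL 22 lower and 1 higher (12.0% and 28.9%), with a median of -0.43.

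The proliferating-like cluster was mixed. At resolution 0.5, it gave a part that kept the proliferation markers, with 6.71% mitochondrial and 3.45% nuclear OXPHOS UMIs in LApc (380 barcodes) and 6.24% and 3.21% in LApcL (621), and another led by Lars2, Gm26917 and histone genes with no marker of any class among its top 50 genes. The latter (246 barcodes in LApc and 420 in LApcL) had medians of 12977.5 and 13187 UMIs, 24.3% and 19.9% mitochondrial UMIs, and 2.25% and 2.15% nuclear OXPHOS UMIs.

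**Figure D4:**
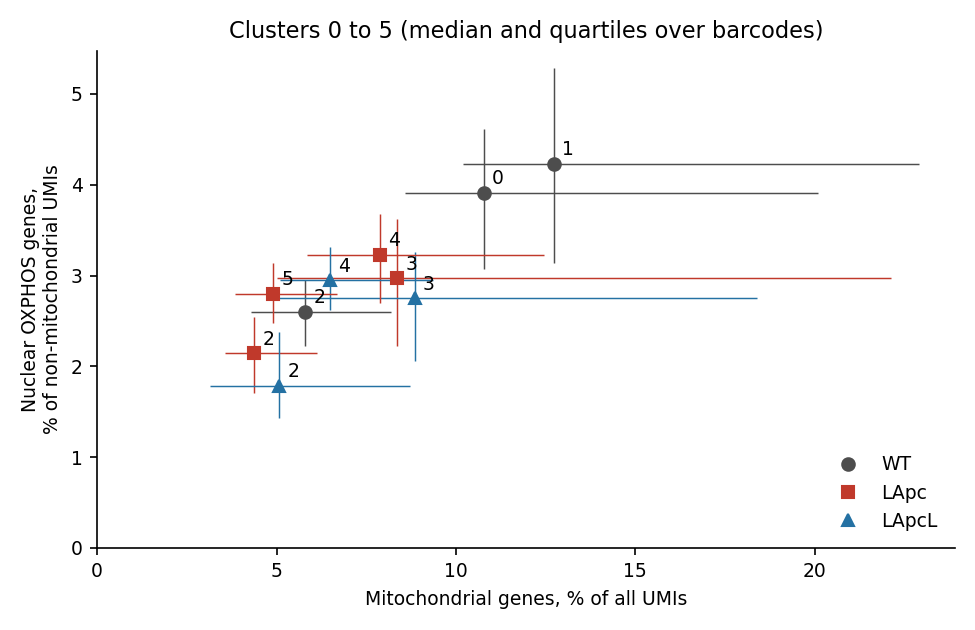
Mitochondrial share (x axis, % of all UMIs) against nuclear OXPHOS share (y axis, % of non-mitochondrial UMIs) for each cluster with at least 20 barcodes in a library. Points are medians over barcodes and bars quartiles; numbers are clusters (1 enterocyte-like, 3 proliferating-like, 5 Wnt-high-like), and WT clusters 0 and 1 lie at the upper right with medians of 3.91% and 4.23% nuclear OXPHOS UMIs.

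Within WT, the enterocyte-like cluster was compared with cluster 2, the states with the highest and lowest nuclear share, and with cluster 0. The comparison with cluster 2 was chosen for these shares, so the direction of its counts followed from the choice and is no separate result. Against cluster 2, 58 of 82 kept members were higher in the enterocyte-like cluster and 0 lower (all genes 17.1% and 30.8%), with a median of 0.81. Highest were Cox7a1 (log2 2.98, on 23 UMIs in cluster 2, kept through its enterocyte-like level alone), Cox5a (1.42, 1100 against 410 CPM), a subunit of complex IV, and Atp5o (1.33, 873 against 345). Lowest were the assembly factors Ndufaf3 (-0.47, interval -0.87 to -0.07) and Ndufaf2 (0.06, interval -0.34 to 0.49) and the complex I subunit Ndufv3 (0.03). All 4 complex II genes and all 8 complex III genes were past 1.5-fold higher. Between the enterocyte-like cluster and cluster 0 the gap was small, with a median of 0.15, 1 member higher (Cox7a1) and 3 lower (all genes 16.8% and 22.4%). The 3 were the assembly factor Ndufaf2 (-0.84), the c-subunit gene Atp5g2 (-0.61) and the assembly factor Ndufaf6 (-0.63), named after their values were seen. Of these, Atp5g2 was also higher in LApc than in WT.

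Barcodes above 20% mitochondrial UMIs had a smaller nuclear OXPHOS share than those below. In WT the nuclear share was 4.44% in barcodes under 10% mitochondrial (532 barcodes), 4.78% from 10 to 20% (676), 3.09% from 20 to 50% (340) and 2.20% above 50% (87). In LApc it was 3.13%, 2.92%, 2.21% and 1.61% (1820, 341, 266 and 29 barcodes), and in LApcL 3.11%, 2.69% and 2.07% over the bands up to 50% (1469, 462 and 254). Depth moved with the bands: the median was 36904.5 UMIs under 10% and 12242 above 50% in WT, 35359 and 11838 in LApc, and 35218 and 13338 (20 to 50%) in LApcL. The ribosomal protein share fell too, from 29.7% to 13.4% in WT. The part of depth in this relation was not tested beyond a limit of 20000 UMIs, at which the log2 ratio of the share from 20 to 50% against under 10% was -0.18 in WT, -0.41 in LApc and -0.44 in LApcL, against -0.52, -0.51 and -0.59 over all deep barcodes. Across barcodes, Spearman's rho of the 2 shares was -0.43 in WT (n = 1635), -0.27 in LApc (n = 2456) and -0.47 in LApcL (n = 2190), with barcodes sharing library and total. Within clusters it ran from -0.25 to -0.68 outside cluster 2, and was 0.07 in cluster 2 of WT (n = 71) and 0.35 in that of LApcL (n = 91). WT remained the highest library in each band.

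**Figure D5:**
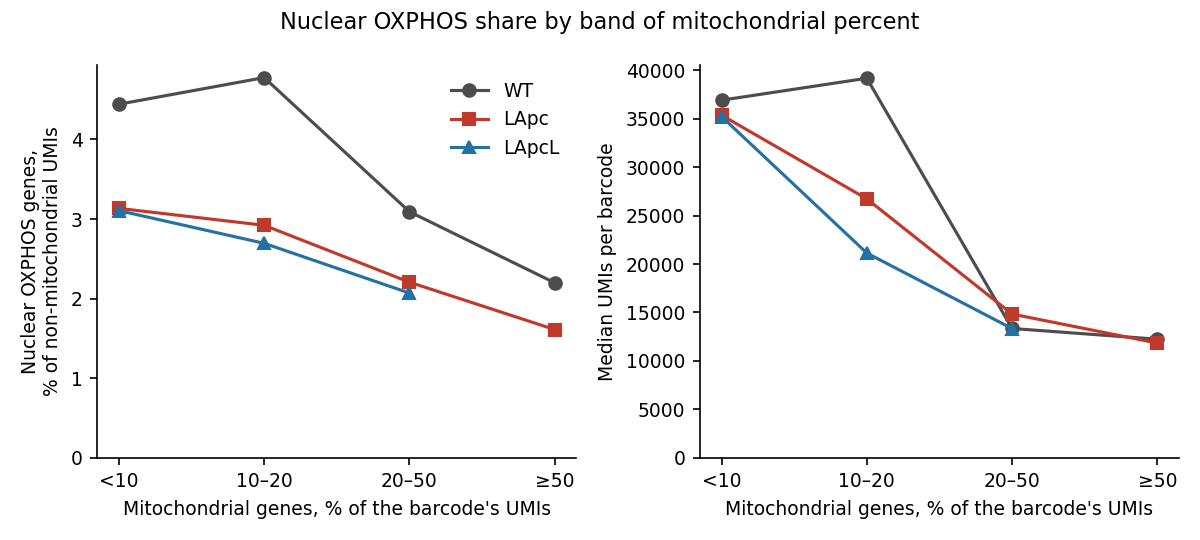
Nuclear OXPHOS share (left, % of non-mitochondrial UMIs) and median UMIs per barcode (right) in deep barcodes by band of mitochondrial percent. Points are bands with at least 20 barcodes of a library; the share falls from 4.44% to 2.20% in WT and from 3.13% to 1.61% in LApc between the outer bands, and the median depth falls with it.

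The endothelial-marked shared barcodes had lower shares of both genomes than the deep barcodes, at levels close to each other in the 3 libraries. Their mitochondrial share was 5.35% in WT, 5.24% in LApc and 5.26% in LApcL, and their nuclear OXPHOS share 1.64%, 1.66% and 1.64%. Of 93 nuclear members, 81 had the minimum level and none was 1.5-fold higher or lower in any of the 3 comparisons (0.0% or 0.016% of all genes in either direction), with medians of 0.01 (LApc against WT), -0.03 (LApcL against LApc) and -0.01 (LApcL against WT). Of the isoforms, Atp5g2 held 53.9%, 52.6% and 53.1% of c-subunit UMIs, and Cox7a1 had only 11, 3 and 2 UMIs, too few to compare. The mitochondrial percent of a barcode in LApc correlated with that in WT at Pearson's r of 0.95 (n = 3195), and its nuclear share at 0.86. These values come from the same barcodes and may not be separate cells.

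Among the shared barcodes, the nuclear share was highest in a cluster led by Ackr4 (578 barcodes), at 1.92% in the WT library. Of the named states, it was 1.70% in the high endothelial venule-like cluster (682), 1.51% in the capillary endothelial-like (1311) and 1.44% in the arterial endothelial-like (73). The venule-like and arterial-like clusters were compared as the highest and lowest of these named states, so the direction of their counts followed from that choice. In the arterial-like against the venule-like cluster, with UMIs summed over the 3 libraries, Ndufa8, a complex I subunit, was lowest of the 80 kept members at 66.4 against 284 CPM (log2 -2.08, on 19 UMIs), followed by the assembly factor Ndufaf3 (-1.47, on 3 UMIs, interval -3.85 to 0.02, kept through its venule-like level alone) and Ndufs3 (-1.42, on 9). The highest were Atp5j (0.69, 528 against 328), a stalk subunit of ATP synthase, Sdhb (0.44) and Ndufv1 (0.42), whose intervals for the last pair reach below 0. Of the 80, 17 were lower and 1 higher in the arterial-like cluster, beside 18.3% and 29.7% of all genes. These intervals take the UMIs of a barcode in the 3 libraries as separate counts, and are too narrow where they are not. In the capillary-like against the venule-like cluster, 0 of 81 kept members were past 1.5-fold (all genes 16.2% higher and 7.73% lower).

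Genes that work with OXPHOS and lie outside the symbol rule were counted by role, beside the same 14.3% of all genes lower and 38.3% higher in LApc against WT and their median of 0.39. Of 13 tricarboxylic acid cycle genes, 7 were lower in LApc than in WT and 0 higher, with a median of -0.62. Mdh2, the malate dehydrogenase, stood at 758 CPM for WT, 284 for LApc and 314 for LApcL, Ogdh at 148, 63.8 and 66.4, and Cs, the citrate synthase, at 175, 102 and 110. Suclg1 (-0.87), Idh3b (-0.69) and Dld (-0.62) were also lower. Of 25 electron carriers and assembly factors, 16 had the minimum level, 5 lower and 4 higher, with a median of 0.04. Cytochrome c, which ferries electrons between complexes III and IV, fell: Cycs stood at 422, 225 and 263 CPM, and Cyc1, the cytochrome c1 subunit of complex III, whose symbol lies outside the rule, at 434, 214 and 243. Cox10 (-1.13), Cox19 (-1.08) and Sco2 (-0.81) were also lower in LApc, and Cox17 (0.72), Sdhaf1 (0.71), Sdhaf2 (0.60) and Sdhaf4 (0.98) higher.

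Mitochondrial ribosomal protein genes stayed mostly within 1.5-fold. Of 78, 77 had the minimum level, 7 were higher in LApc than in WT and 0 lower, again beside 38.3% and 14.3% of all genes, with a median of 0.05 that lay under the all-gene median of 0.39, and Mrpl17 rose most, from 63.3 to 129 and 145 CPM. Of 12 genes for mitochondrial DNA upkeep and transcription, 5 had the minimum level: Tfam stood at 58.1, 51.9 and 55.9 CPM, Tfb2m (0.81) and Ssbp1 (0.77) were higher and Lrpprc (-1.16) lower in LApc. Of 10 nuclear regulators, 6 had it. Ppargc1a, a coactivator of mitochondrial biogenesis, which reached the minimum mean level through WT alone, stood at 44.8, 9.41 and 12.0 CPM, Esrra, a nuclear receptor it works with, at 114, 32.0 and 36.3, and Hif1a, the hypoxia-inducible factor, at 241, 57.3 and 81.1. Yy1 (98.9, 169 and 198) was higher, and Myc (40.1, 59.8 and 69.5) was past 1.5-fold higher in LApcL (log2 0.78) and short of it in LApc (0.57). In LApcL against LApc, 0 genes of these lists passed 1.5-fold, beside 4.46% of all genes higher and 4.89% lower.

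Of 7 carriers and pores, the isoforms of the ADP/ATP carrier moved apart. Slc25a4 stood at 30.7 CPM for WT, 211 for LApc and 251 for LApcL (log2 2.74 and 3.00 against WT), and Slc25a5 at 872, 492 and 573. Slc25a4 held 3.40% of the summed UMIs of the pair in WT, 30.0% in LApc and 30.5% in LApcL. Within WT its share was 1.72% in the enterocyte-like cluster, 5.17% in cluster 0 and 18.4% in cluster 2. In cluster 2 the share was 18.4%, 21.3% and 14.3% over WT, LApc and LApcL, so the libraries did not differ in the same way in that cluster. In the shared barcodes it was 51.9%, 52.1% and 53.2%. Slc25a3, the phosphate carrier, was lower in LApc (-0.78).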

How the data were processed

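Organoids were dissociated with trypsin, filtered and put through a droplet-based 3′ single-cell kit, v2 or v3 by the study's methods. The authors deposited raw UMI counts per gene and barcode, aligned to mm10 (GRCm38) and limited to called cells, with at least 500 UMIs. The file headers name Cell Ranger 6.0.1, while the submitters' processing notes name Cell Ranger 2.1.1.

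From these counts, deep barcodes (1 library, at least 10000 UMIs) and barcodes of all 3 libraries were summed per library. Nuclear genes were scaled to CPM, counts per 1000000 non-mitochondrial UMIs, and mitochondrial genes to CPM of all UMIs, log2 ratios used a pseudocount of 1, and genes with a mean level under 20 over the libraries were not counted. A call was a difference of at least 1.5-fold. With 1 library per group there was no test, and 95% exact intervals of the UMI counts cover counting error only. Those intervals leave out the pseudocount.

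Barcodes were clustered in scanpy 1.11.5 (log counts, 20 principal components, 20 neighbours, Leiden resolution 0.2, with 0.5 as an alternative) without integration and without mitochondrial, OXPHOS or accessory genes, and named for the class with most of its markers, at least 3, among the 50 leading genes, though other classes could have markers there too. Cluster 2 of the deep barcodes, with markers of 3 classes, was left unnamed. Doublets stayed in. Scrublet's own threshold marked 1, 0 and 0 barcodes, so the alternative removed the highest scores at 0.8% per 1000 barcodes (217, 207 and 241 barcodes of those with at least 5000 UMIs). On simulated counts, 200 of 200 genes changed 2.0-fold were called in LApc against WT (6266 genes), and 0 unchanged genes were. The simulated counts came from 1 pooled profile with counting error alone, at a true change above the 1.5-fold limit. They held no variation between mice or libraries and no shift of the typical gene, so they check the arithmetic and not the calls.

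Named genes were the 5 highest and 5 lowest kept members of a library comparison, the 3 highest and lowest of a state comparison, and all complex II, isoform and mitochondrial genes. Further members and the accessory genes were named as examples, after their values were seen, and not every gene past 1.5-fold is reported here. The members and lists were chosen with earlier results of these data known. Numbers were computed with Python 3.11.15, numpy 2.4.6, scipy 1.17.1 and pandas 2.3.3, and drawn with matplotlib 3.10.9. Alternatives covered scaling, depth, mitochondrial limit, level, fold, doublets, resolution and leaving out enterocyte-like barcodes.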

Additional observations from a re-analysis of the deposited data

Results flagged for a closer look

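The mitochondrial share of the proliferating-like cluster against cluster 4 ran in opposite directions in the Apc-deleted libraries. Its log2 ratio was -0.10 in LApc (9.24% against 9.88%) and 0.17 in LApcL (8.50% against 7.55%). Each library was 1 sample, and the difference was not tested. In LApcL the ratio was -0.11 in barcodes with at most 20% mitochondrial UMIs and -0.31 with clusters at resolution 0.5, so its direction turned under both.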

How the results depend on the processing

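In every alternative run the median of the nuclear members stayed below 0 in LApc and LApcL against WT. Median-of-ratios scaling gave medians of -0.84 and -0.81, with 58 and 57 genes lower and 1 and 0 higher (all genes in LApcL 21.3% lower and 26.7% higher), and a total without ribosomal protein genes gave -0.60 and -0.61. On the scale of all UMIs, 24 genes were lower in LApc. Outside the enterocyte-like cluster, 23 were lower in LApc and 23 in LApcL, with 1 higher in LApcL (all genes in LApcL 10.6% and 27.5%). A limit of 2-fold left 6 and 7 lower and 0 and 0 higher (all genes 9.02% and 9.46% lower, 18.2% and 21.4% higher). In LApcL against WT, 5 were higher with equal weight per barcode (all genes 38.3%) and 0 at a level of at least 100 (38.4%). In LApcL against LApc, the median was 0.0214 with median-of-ratios scaling and 0.00878 with at least 20000 UMIs, and 1 gene was lower with no filter on level (all genes 6.62%).

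The mitochondrial share in WT, LApc and LApcL was 11.9%, 6.07% and 6.97% as a median over barcodes, 11.5%, 6.91% and 7.00% with at least 20000 UMIs, 17.6%, 9.20% and 9.30% with at least 5000, 13.5%, 7.93% and 7.85% with doublets removed, and 10.7%, 6.45% and 6.93% at no more than 20% mitochondrial. The nuclear OXPHOS share was 4.02%, 2.91% and 2.87% as a median, 4.62%, 3.12% and 3.08% with at least 20000 UMIs, 4.13%, 3.01% and 2.92% with at least 5000, 4.53%, 3.08% and 3.02% with doublets removed, 4.63%, 3.11% and 3.04% at no more than 20% mitochondrial, and 6.25%, 4.04% and 3.93% of a total without ribosomal protein genes. In shared barcodes with at least 1000 UMIs in each library the shares were 4.94%, 4.87% and 4.85% (mitochondrial) and 1.69%, 1.71% and 1.69% (nuclear), and at no more than 20% mitochondrial the former was 5.17%, 5.09% and 5.08%. WT was the highest deep library under each of these.

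In LApc the log2 mitochondrial share of the Wnt-high-like cluster against cluster 4 was -0.58 at no more than 20% mitochondrial, under 1.5-fold. That of the proliferating-like cluster in LApcL was -0.11 there and -0.31 at resolution 0.5. The nuclear share from 20 to 50% against under 10% mitochondrial was -0.59 within the largest WT cluster, and -0.44 in LApcL with at least 20000 UMIs. The cause of these shifts was not tested. No paired analysis was possible because each group is 1 library. With 1 library a group, the spread between mice is not measured, however deep the counts.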

Other observations

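Shallow barcodes of 1 library, with under 10000 UMIs, were not used above. There were 6465 in WT, 5005 in LApc and 6579 in LApcL. Their mitochondrial share was 36.6%, 34.6% and 29.3%, and their nuclear OXPHOS share 1.91%, 1.74% and 1.80%, so that WT was again highest in both by summed UMIs. The median barcode was at 35.3% mitochondrial in WT, 36.1% in LApc and 26.4% in LApcL, so LApc was highest by that measure. They held 30.2, 30.4 and 23.1 mitochondrial UMIs for each nuclear OXPHOS UMI, against 2.77 to 3.57 in the deep barcodes. Barcodes found in exactly 2 libraries were few, with 116 in WT, 50 in LApc and 104 in LApcL.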
